A study of Rattus norvegicus with 6 samples.

Results

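The genes described here encode the platelet-derived growth factors (PDGFs) with their receptors, and some of the vascular endothelial growth factors (VEGFs) and angiopoietins. They were selected by symbol from the deposited tables: Pdgfa, Pdgfb, Pdgfc, Pdgfd, Pdgfra, Pdgfrb, Vegfb, Vegfc, Angpt1 and Angpt2. All 10 of these genes were listed, among 29468 gene symbols, and all 10 passed the filter on low values. RNA was measured in 3 preparations of Schwann cell precursors (SCPs) and 3 preparations of repair Schwann cells (RSCs). The labels give LEWIS rats of wild type genotype for all of them, while the methods name LEWIS rats carrying a red fluorescent protein transgene as the source of the cells grafted in the study, which were prepared by the same procedure as those for RNA. The SCPs were dissociated from both sciatic nerves and the brachial plexus of embryos at embryonic day 14. The RSCs came from the distal part of sciatic nerves of rats aged 10 weeks, which had been cut 1 week earlier, so that age, injury and dissociation differed together between the groups. Both preparations held every cell type that remained after a short plating step against fibroblasts and macrophages, and the labels do not say which animals went into which preparation. In such bulk RNA, fewer cells of a type and less RNA per cell cannot be told apart.

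PDGFs are secreted dimers that bind receptor tyrosine kinases of mesenchymal, mural and glial cells: PDGF-A and PDGF-C act mainly through PDGFR alpha, PDGF-B through both receptors and PDGF-D mainly through PDGFR beta. VEGF-B binds VEGFR1, VEGF-C binds VEGFR3 and VEGFR2, and both act largely on endothelial cells of blood or lymph vessels. The angiopoietins are ligands of the endothelial receptor Tie2, which Angpt1 activates and Angpt2 blocks or activates depending on context. In peripheral nerve these factors belong to the exchange between glia, perineurial and endoneurial mesenchyme and vessels.

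Expression was read in FPKM (fragments divided by transcript length and by the mapped total), a scale on which genes of different length can be compared. The tables list named reference transcripts and, in addition, unnamed transcripts that Cufflinks assembled from each sample. The sum over the named transcripts of a gene is called its listed level, and the same sum with the unnamed transcripts that overlap the gene in the same assembled locus is called its locus level. Differences are RSC minus SCP in log2(FPKM + 1), so that low genes differ by more than these values, each with its standard error (SE) from limma, fitted to every gene whose mean reached 1 FPKM. Genes were called at an unadjusted p under 0.01, and the p-values printed are adjusted after Benjamini and Hochberg across the whole fit, so that an adjusted p above 0.01 can belong to a called gene.

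At the listed level, limma called 1 of the 10 genes higher in the RSCs (Pdgfa) and 1 higher in the SCPs (Vegfc), while 8 did not pass. Among all 13003 genes tested in this way, 18.1% were called higher in the RSCs and 22.4% higher in the SCPs. At the locus level, 3 of the 10 were called higher in the RSCs (Pdgfa, Pdgfb and Pdgfd) and 4 higher in the SCPs (Pdgfc, Pdgfrb, Vegfc and Angpt1), against 23.2% and 34.2% of 14019 genes. Over 4-fold and past the same p were 1 gene at the listed level (Pdgfa) and 2 at the locus level (Pdgfa and Pdgfc), where the shares of all genes were 11.6% and 13.1%. The 3 values of each group did not overlap for 4 of the 10 genes at the listed level and for 8 of the 10 at the locus level, as was the case for 58.6% and 72.4% of all genes tested. The median difference of the 10 genes was -0.24 at the listed level, beside -0.17 over all genes tested, and 0.02 at the locus level, beside -0.24.

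**Figure D1:**
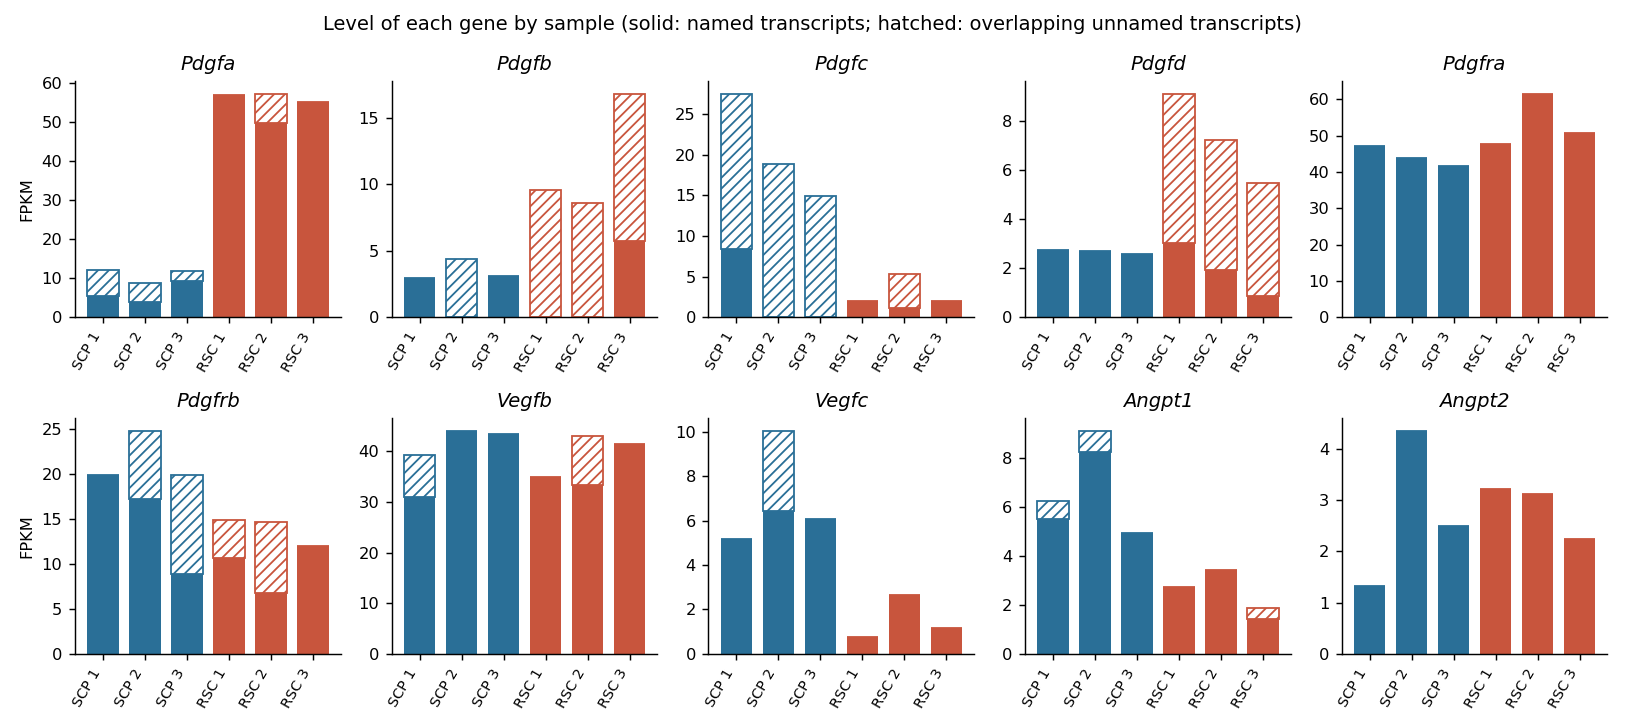
FPKM (vertical axis, linear, a scale of its own for each gene) of the 10 genes in the 3 SCP samples (blue) and the 3 RSC samples (red), with the listed level solid and the overlapping unnamed transcripts hatched, so that the full bar is the locus level. Pdgfa lies between 49.7 and 57.0 FPKM in the RSCs and does not exceed 9.16 in the SCPs at the listed level, while most of the Pdgfc level in the SCPs and of the Pdgfb and Pdgfd levels in the RSCs is hatched.

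The promoters of Pdgfa, Pdgfb and Vegfc, genes that differed between the groups at the locus level, are shown as the 250 bases before the RefSeq start site on the GRCr8 rat assembly, which is not the rn6 assembly of the FPKM tables. Pdgfa lies on the plus strand at chr12:20759116-20759365, Pdgfb on the minus strand at chr7:113438344-113438593 and Vegfc on the minus strand at chr16:44560888-44561137. Capitals mark each match to the GC box GGGCGG on either strand, and on the reverse strand the match reads CCGCCC.
Pdgfa promoter: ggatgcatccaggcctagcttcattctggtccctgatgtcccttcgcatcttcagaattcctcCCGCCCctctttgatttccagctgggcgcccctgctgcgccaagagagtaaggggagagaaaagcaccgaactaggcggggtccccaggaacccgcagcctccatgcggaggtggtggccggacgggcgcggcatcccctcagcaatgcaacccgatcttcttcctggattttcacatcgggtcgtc
Pdgfb promoter: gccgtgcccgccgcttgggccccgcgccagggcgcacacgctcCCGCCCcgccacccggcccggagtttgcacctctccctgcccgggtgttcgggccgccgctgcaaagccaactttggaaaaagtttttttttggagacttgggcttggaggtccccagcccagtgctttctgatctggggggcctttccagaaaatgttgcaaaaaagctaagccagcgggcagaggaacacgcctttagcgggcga
Vegfc promoter: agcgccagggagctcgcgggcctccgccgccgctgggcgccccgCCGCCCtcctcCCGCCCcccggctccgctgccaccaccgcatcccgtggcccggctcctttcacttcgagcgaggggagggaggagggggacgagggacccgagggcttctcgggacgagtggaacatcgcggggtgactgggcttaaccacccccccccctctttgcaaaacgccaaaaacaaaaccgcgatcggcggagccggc

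The Pdgfa and Pdgfb windows held 1 GC box each and the Vegfc window 2, and a GC box was found in 30.5% of 33465 rat promoter windows of this length. RefSeq promoters were given for 7 of the 10 genes, and those of Pdgfrb, Angpt1 and Angpt2 were not matched. Of the other windows, Vegfb held 4 GC boxes and Pdgfd 1, and none was found in those of Pdgfc and Pdgfra. The GC content was 60.8% for Pdgfa, 63.6% for Pdgfb and 72.4% for Vegfc, beside a median of 51.2% over all windows. The AP-1 motif TGANTCA, present in 6.34% of all windows, was found once among these genes, in Pdgfra, and the TATA box TATAAA, present in 12.9%, in none of them. The EGR motif GCGNGGGCG, present in 4.29%, matched once in Vegfb, where it overlapped a GC box. These windows were searched on both strands, and a match describes the letters alone.

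Pdgfa encodes the A chain, a ligand of PDGFR alpha made by many cell types including neurons and epithelia. Its listed level was 5.53, 3.89 and 9.16 FPKM in SCP replicates 1 to 3 and 57.0, 49.7 and 55.1 FPKM in RSC replicates 1 to 3. Every RSC sample lay above every SCP sample, with a wide gap between the groups. The mean was 6.19 ± 2.70 FPKM in the SCPs and 53.9 ± 3.76 FPKM in the RSCs (SD, n = 3 each), 8.71 times as high. The difference was 3.00 (SE 0.27, limma adjusted p = 4.2e-04). It was the largest difference of the 10 genes at the listed level, while Pdgfc differed more at the locus level. It kept its direction and call in all 17 alternatives tried, between 2.28 and 3.28, although some of these act on the p-value only.

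On rn6 the 4 listed Pdgfa transcripts span chromosome 12 from 17732358 to 17756186, and 2 of them were above 0. The transcript of 1319 bases had 5.53, 3.89 and 7.56 FPKM in the SCPs and 35.3, 33.7 and 40.1 FPKM in the RSCs. The transcript of 2240 bases was listed at 0 in SCP replicates 1 and 2, at 1.60 FPKM in SCP replicate 3, and at 21.7, 16.0 and 15.0 FPKM in the RSCs. Cufflinks gave the shorter transcript the status LOWDATA, its mark for a locus too complex or too shallow to resolve, in 5 of the 6 samples. Both transcripts were higher in every RSC sample than in any SCP sample. Unnamed transcripts held 54.6%, 55.6% and 22.8% of the Pdgfa locus level in the SCPs, and of the RSC samples they were present only in replicate 2, with 12.8%. With them, the level was 12.2, 8.76 and 11.9 FPKM in the SCPs and 57.0, 57.1 and 55.1 FPKM in the RSCs. The ratio of the means went from 8.71 to 5.16 and the difference to 2.28 (SE 0.13, limma adjusted p = 2.1e-05).

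Pdgfb encodes the B chain, which endothelial cells, platelets and macrophages are known to make and which recruits mural cells to vessels. Its single listed transcript had 2.97, 0 and 3.13 FPKM in the SCPs and 0, 0 and 5.72 FPKM in the RSCs. The values of 0 had the status LOWDATA. The listed groups overlapped and limma made no call, with a difference of -0.43 (SE 0.96, limma adjusted p = 0.74). The unnamed transcripts over Pdgfb on chromosome 7 (121215458 to 121233092) held the whole level of the samples listed at 0. With them, Pdgfb stood at 2.97, 4.39 and 3.13 FPKM in the SCPs and at 9.55, 8.62 and 16.7 FPKM in the RSCs. All RSC samples then lay above all SCP samples, with a difference of 1.45 (SE 0.26, limma adjusted p = 0.0029) and a ratio of means of 3.33. In RSC replicate 3, the highest sample, 11.0 FPKM came from an unnamed transcript of 829 bases near one end of the gene, beside 5.72 FPKM of the listed transcript of 1706 bases.

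Pdgfc encodes a ligand of PDGFR alpha that is secreted with a CUB domain and becomes active when a protease removes it. Its single listed transcript, of 1116 bases, was at 8.41, 0 and 0 FPKM in the SCPs and at 2.04, 1.19 and 1.98 FPKM in the RSCs. The status was LOWDATA in all SCP samples and in RSC replicate 2. The listed levels overlapped, and the difference was 0.36 (SE 0.92, limma adjusted p = 0.78). Unnamed transcripts of 2723 to 3288 bases, which reach past both ends of the listed one on chromosome 2 (179952227 to 180126897), held 69.3% of the SCP replicate 1 level and the whole level of the other SCP samples. The locus level was 27.4, 18.9 and 14.9 FPKM in the SCPs and 2.04, 5.32 and 1.98 FPKM in the RSCs. The lowest SCP sample was above the highest RSC sample, and Pdgfc was higher in the SCPs by 6.56 times in the means. Its difference was -2.43 (SE 0.35, limma adjusted p = 0.0010), the largest difference in this direction among the 10 genes. At the listed level the mean of log2(FPKM + 1) was higher in the RSCs, while the mean FPKM was higher in the SCPs by 1.61 times.

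Pdgfd, also secreted with a CUB domain and mainly a ligand of PDGFR beta, had 2.75, 2.70 and 2.57 FPKM at the listed level in the SCPs and 3.02, 1.94 and 0.861 FPKM in the RSCs. These groups overlapped, with a difference of -0.39 (SE 0.32, limma adjusted p = 0.36). In each RSC sample, and in no SCP sample, a single unnamed transcript of 1622 to 1787 bases spanned the gene on chromosome 8 (4441010 to 4666754), where the listed transcript has 1327 bases. The RSC locus levels were therefore 9.09, 7.23 and 5.46 FPKM, all above the SCP levels, which stayed as listed. The difference was 1.15 (SE 0.19, limma adjusted p = 0.0018) and the ratio of means 2.72. The sign changed between the listed and the locus level.

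**Figure D2:**
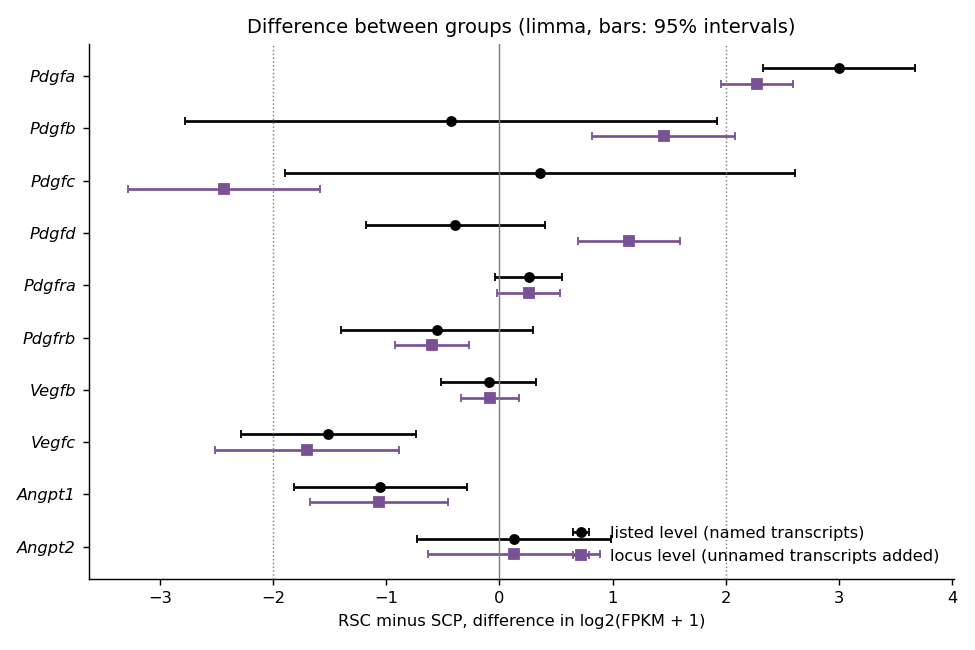
Difference between the groups (horizontal axis, RSC minus SCP in log2(FPKM + 1)) for the 10 genes, as estimated by limma from 3 samples per group, with 95% intervals as bars, at the listed level (black circles) and at the locus level (purple squares); dotted lines mark 4-fold. The 2 estimates lie close together for Pdgfra, Vegfb, Angpt1 and Angpt2 and on opposite sides of 0 for Pdgfb, Pdgfc and Pdgfd.

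Of the PDGF receptors, Pdgfra passed at neither level and Pdgfrb at the locus level only. Pdgfra encodes PDGFR alpha, a marker of fibroblast lineages and of oligodendrocyte precursors. It was at 47.0, 43.7 and 41.7 FPKM in the SCPs and at 47.6, 61.3 and 50.6 FPKM in the RSCs, with no unnamed transcript. The groups did not overlap, although SCP replicate 1 and RSC replicate 1 were almost equal, and the difference of 0.26 (SE 0.12, 95% interval -0.04 to 0.55) did not pass the threshold (limma adjusted p = 0.13). Under median-of-ratios scaling, which moved the median difference of all genes from -0.17 to 0.01, it was 0.46 and passed. In every RSC sample and in SCP replicate 1, the whole level was assigned to the transcript of 6515 bases. SCP replicates 2 and 3 had 14.9 and 13.1 FPKM in a transcript of 6570 bases with another start site, which was listed at 0 in the other 4 samples.

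Pdgfrb encodes PDGFR beta, the receptor of pericytes and smooth muscle cells and of many fibroblasts. Its listed level was 19.8, 17.1 and 8.88 FPKM in the SCPs and 10.7, 6.81 and 12.0 FPKM in the RSCs, where the groups overlapped (difference -0.55, SE 0.35, limma adjusted p = 0.24). Its locus level was 19.8, 24.7 and 19.9 FPKM in the SCPs and 14.9, 14.6 and 12.0 FPKM in the RSCs. These groups did not overlap, and Pdgfrb was higher in the SCPs by 1.55 times in the means (difference -0.60, SE 0.14, limma adjusted p = 0.0074). The direction was the same at both levels.

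Vegfb was the most abundant of Vegfb, Vegfc, Angpt1 and Angpt2 in both groups. It encodes a ligand of VEGFR1 known from heart, muscle and fat. The listed level was 30.9, 44.0 and 43.4 FPKM in the SCPs and 34.9, 33.3 and 41.5 FPKM in the RSCs. All Vegfb transcripts of SCP replicates 2 and 3 had the status LOWDATA. The groups overlapped, and the difference was -0.09 (SE 0.17, 95% interval -0.52 to 0.33, limma adjusted p = 0.68). With unnamed transcripts the SCP samples lay between 39.3 and 44.0 FPKM and the RSC samples between 34.9 and 43.1 FPKM, with a difference of -0.09 (95% interval -0.34 to 0.17).

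Vegfc, whose product drives the growth of lymphatic vessels through VEGFR3, was at 5.15, 6.45 and 6.09 FPKM in the SCPs and at 0.761, 2.64 and 1.18 FPKM in the RSCs. All SCP samples were above all RSC samples. The confidence bounds that Cufflinks gave for single samples ran from 3.39 to 8.21 FPKM over the SCPs and from 0.134 to 3.76 FPKM over the RSCs, so that those of RSC replicate 2 overlapped those of SCP replicate 1. The mean was 5.90 ± 0.669 FPKM in the SCPs and 1.53 ± 0.988 FPKM in the RSCs (SD, n = 3 each), and the SCP mean was 3.86 times the RSC mean. The difference was -1.51 (SE 0.31, limma adjusted p = 0.0098). The call was lost without SCP replicate 2, SCP replicate 3 or RSC replicate 3, with differences of -1.45, -1.49 and -1.44. On rn6 Vegfc spans chromosome 16 from 40440371 to 40555178, and an unnamed transcript of 646 bases at one end added 3.59 FPKM in SCP replicate 2 only, which took the difference to -1.70 (SE 0.34, limma adjusted p = 0.0043).

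Angpt1, the activating ligand of Tie2, which mural and mesenchymal cells are known to secrete, was at 5.49, 8.22 and 4.92 FPKM in the SCPs and at 2.71, 3.44 and 1.41 FPKM in the RSCs. The groups did not overlap, and the SCP mean was 2.46 times the RSC mean. Its listed transcript of 1890 bases, the most abundant in every sample, had the status LOWDATA in all 6. With a difference of -1.05 (SE 0.31, limma adjusted p = 0.035) it did not pass at the listed level. With unnamed transcripts, at 6.24, 9.09 and 4.92 FPKM in the SCPs and 2.71, 3.44 and 1.88 FPKM in the RSCs, it did (difference -1.06, SE 0.26, limma adjusted p = 0.0095).

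Angpt2, which endothelial cells release when vessels are remodelled, was at 1.33, 4.35 and 2.50 FPKM in the SCPs and at 3.23, 3.13 and 2.24 FPKM in the RSCs, with no unnamed transcript. The RSC samples all lay within the range of the SCPs, and the difference was 0.13 (SE 0.35, 95% interval -0.73 to 0.98, limma adjusted p = 0.79). SCP replicates 1 and 2 were the lowest and the highest of the 6 samples.

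The order of the levels can be given within each group, since FPKM are per length. At the locus level of the SCPs, Pdgfra (44.1 ± 2.70 FPKM) and Vegfb (42.2 ± 2.57) stood first, and their samples overlapped. Pdgfrb (21.5 ± 2.81) and Pdgfc (20.4 ± 6.39) followed and overlapped each other. Pdgfa (10.9 ± 1.89), Vegfc (7.09 ± 2.59) and Angpt1 (6.75 ± 2.13) came next and each overlapped its neighbour, as did the lowest group of Pdgfb (3.49 ± 0.780), Angpt2 (2.73 ± 1.52) and Pdgfd (2.67 ± 0.0899). In the RSCs, Pdgfa (56.4 ± 1.10 FPKM) stood first and overlapped Pdgfra (53.2 ± 7.21), followed by Vegfb (39.8 ± 4.32) without overlap. Pdgfrb (13.8 ± 1.59) came next, below all Vegfb samples, and Pdgfb (11.6 ± 4.44) and Pdgfd (7.26 ± 1.82) each overlapped the gene above. Pdgfc (3.11 ± 1.91), Angpt2 (2.87 ± 0.542), Angpt1 (2.68 ± 0.783) and Vegfc (1.53 ± 0.988) were lowest and each overlapped the next, while Pdgfc did not reach Pdgfd (all SD, n = 3). In this order Pdgfa held rank 5 of 10 in the SCPs and rank 1 in the RSCs, and Pdgfc rank 4 and rank 7.

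Ratios of a pair of genes within a sample depend on the scaling between libraries only through the 1 FPKM added to each value, which weighs most on low genes. They were compared with a two-sided exact permutation test, in which 3 samples against 3 cannot give a p below 0.1. The log2 ratio of Pdgfc to Pdgfa at the locus level, both on the FPKM + 1 scale, was 1.11, 1.03 and 0.31 in the SCPs and -4.25, -3.20 and -4.23 in the RSCs. Pdgfc was above Pdgfa in every SCP sample and below it in every RSC sample, with a difference of -4.71 (exact p = 0.1). At the listed level the same ratio was 0.53, -2.29 and -3.35 in the SCPs and -4.25, -4.54 and -4.23 in the RSCs, a difference of -2.64 (exact p = 0.1), which was -1.16 (exact p = 1.0) with a pseudocount of 0.1.

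For the angiopoietins, the log2 ratio of Angpt1 to Angpt2 at the listed level was 1.48, 0.79 and 0.76 in the SCPs and -0.19, 0.11 and -0.43 in the RSCs. Angpt1 exceeded Angpt2 in every SCP sample, and in the RSCs the pair was nearly level (mean 1.01 ± 0.41 against -0.17 ± 0.27, SD, n = 3 each). The difference was -1.18 (exact p = 0.1) and at the locus level -1.19 (exact p = 0.1). The log2 ratio of Pdgfra to Pdgfrb was 1.20, 1.30 and 2.11 in the SCPs and 2.06, 3.00 and 1.99 in the RSCs at the listed level, where the groups overlapped (difference 0.81, exact p = 0.3). At the locus level it was 1.20, 0.80 and 1.03 in the SCPs and 1.61, 1.99 and 1.99 in the RSCs, without overlap (difference 0.85, exact p = 0.1).

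**Figure D3:**
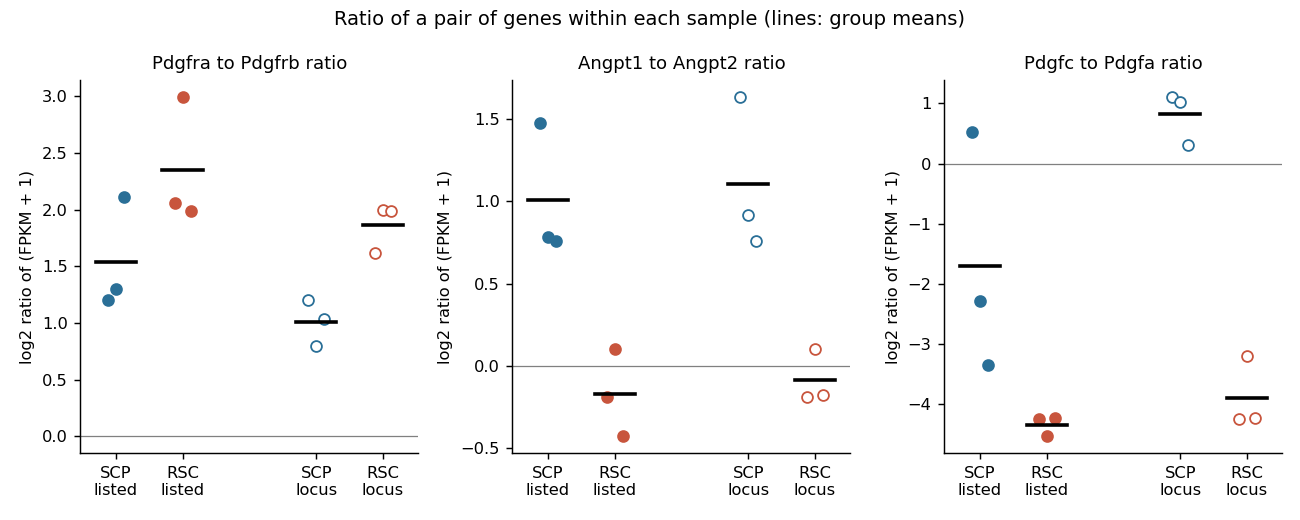
Log2 ratio of (FPKM + 1) of 3 pairs of genes within each sample (vertical axis), with 1 point per sample, SCPs blue and RSCs red, filled points for the listed level, open points for the locus level and black lines for group means of 3 samples. At the locus level the Pdgfc to Pdgfa ratio lies between 0.31 and 1.11 in the SCPs and between -4.25 and -3.20 in the RSCs.

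Of the 8 receptors and co-receptors for VEGFs and angiopoietins examined, limma called 1 higher in the RSCs and 1 higher in the SCPs at the listed level, and 3 and 2 at the locus level. Among all genes tested, 18.1% and 22.4% were called in these directions at the listed level, and 23.2% and 34.2% at the locus level. The higher ones at the locus level were Flt1 (VEGFR1, the receptor of VEGF-B), Nrp2, a co-receptor of VEGF-C, and Ptprb, the vascular phosphatase that dampens Tie2. The lower ones were Flt4 (VEGFR3, the receptor of VEGF-C) and Nrp1. At the listed level the higher one was Nrp2 (difference 1.27, SE 0.29, limma adjusted p = 0.014) and the lower one Nrp1 (difference -1.39, SE 0.20, limma adjusted p = 0.0026). Flt1 had a locus level of 1.65, 2.66 and 2.54 FPKM in the SCPs and of 9.21, 8.26 and 7.37 FPKM in the RSCs (difference 1.51, SE 0.18, limma adjusted p = 3.9e-04), all of it in unnamed transcripts in RSC replicate 1. At the listed level its difference was -0.60 (limma adjusted p = 0.45). Flt4, low throughout, had 2.15, 2.82 and 3.21 FPKM in the SCPs and 0.653, 0.914 and 0.339 FPKM in the RSCs at the locus level (difference -1.19, SE 0.21, limma adjusted p = 0.0024), and -0.50 (limma adjusted p = 0.49) at the listed level. The listed value of Flt4 in SCP replicate 3 was 0. Flt4 and Vegfc, a receptor and its ligand, were both lower in the RSCs at the locus level. At that level Kdr differed by -0.13 (limma adjusted p = 0.63) and Nrp2 by 0.74 (limma adjusted p = 5.5e-04). Nrp1, also lower in the RSCs there, differed by -1.63 (SE 0.12, limma adjusted p = 5.4e-05).

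Kdr (VEGFR2) had a difference of -0.19 (SE 0.27, limma adjusted p = 0.61) at the listed level, with 3.60 to 6.85 FPKM in the SCPs and 3.36 to 5.21 FPKM in the RSCs. Tek (Tie2) was at 1.51, 4.98 and 2.57 FPKM in the SCPs and at 5.44, 5.49 and 6.56 FPKM in the RSCs. The Tek groups did not overlap, but its difference of 0.85 (SE 0.34, limma adjusted p = 0.090) did not pass, nor did that of Tie1, a receptor related to Tie2 (0.67, SE 0.25, limma adjusted p = 0.071).

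Of the 8 proteins that cleave or help to cleave PDGF-C, PDGF-D or VEGF-C, 7 were tested. Of these, limma called 3 higher in the RSCs and none higher in the SCPs at the listed level, where none reached an unadjusted p under 0.05 in that direction either, and 3 and 1 at the locus level. The shares over all genes tested were 18.1% and 22.4% at the listed level, and 23.2% and 34.2% at the locus level. Plau, the urokinase that can release active PDGF-D, was at 0.775, 1.63 and 2.65 FPKM in the SCPs and at 37.1, 36.6 and 37.0 FPKM in the RSCs (difference 3.88, SE 0.28, limma adjusted p = 1.8e-04). It was the only one of the list over 4-fold at the listed level. Plat, the tissue plasminogen activator that cleaves PDGF-C, stood at 78.4, 81.1 and 82.4 FPKM in the SCPs and at 283, 254 and 257 FPKM in the RSCs (difference 1.70, SE 0.07, limma adjusted p = 3.4e-05). St14, the membrane protease matriptase, was the third (difference 1.94, SE 0.23). Adamts3, which cleaves pro-VEGF-C, had a locus level of 9.86, 7.31 and 3.23 FPKM in the SCPs and of 0.219, 0.125 and 0.151 FPKM in the RSCs (difference -2.64, SE 0.35, limma adjusted p = 6.7e-04); SCP replicate 1 was listed at 0, and at the listed level the difference was -1.49 (limma adjusted p = 0.16). Ccbe1, the partner of Adamts3, was below the filter, at 0.829 FPKM or less in every sample.

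**Figure D4:**
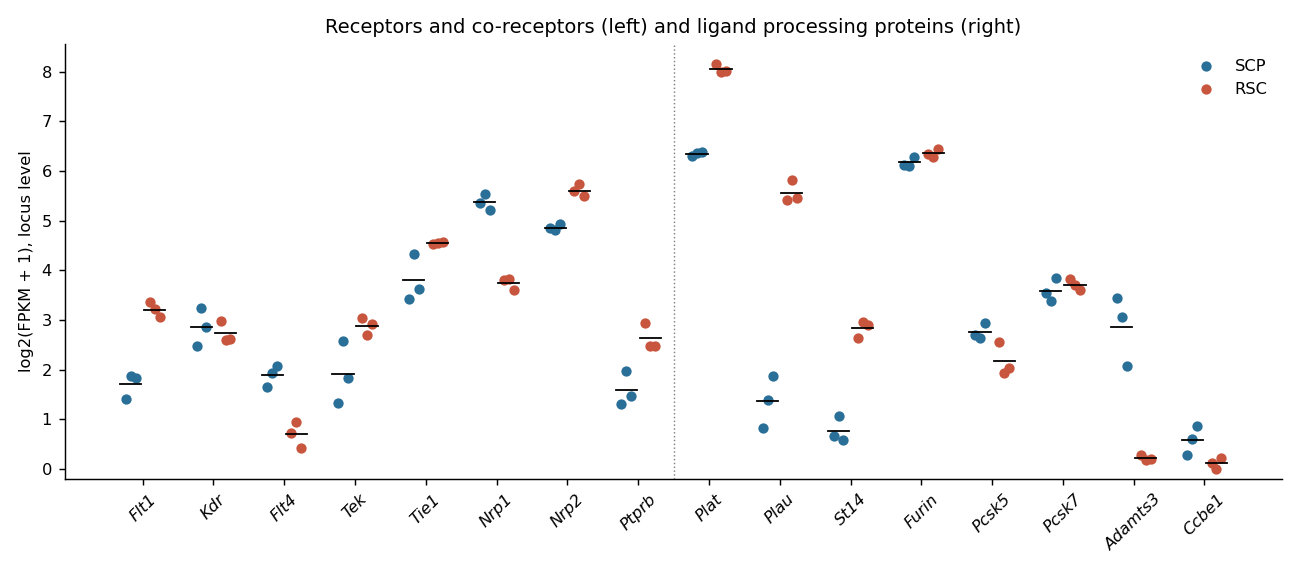
Locus level in log2(FPKM + 1) (vertical axis) of 8 receptors and co-receptors (left of the dotted line) and 8 proteins of ligand processing (right), with 1 point per sample, SCPs blue, RSCs red and black lines for means of 3 samples. Plau, Plat and Flt1 are higher in all 3 RSC samples than in any SCP sample, and Adamts3, Nrp1 and Flt4 are lower.

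Below the receptors, 20 signalling proteins were tested, of which 4 were called higher in the RSCs and 4 higher in the SCPs at the listed level, and 6 and 4 at the locus level. These counts lie beside shares of 18.1% and 22.4% of all genes tested at the listed level, and 23.2% and 34.2% at the locus level. The median difference was 0.06 at the listed level. The higher ones at the listed level were Fyn, Gab1, Mapk3 and Stat3, and the lower ones Plcg1, Rasa1, Nck2 and Cbl. Plcg1, the phospholipase C recruited by both receptor families, had 79.8, 61.6 and 66.7 FPKM in the SCPs and 18.0, 14.5 and 21.9 FPKM in the RSCs (difference -1.89, SE 0.18, limma adjusted p = 4.8e-04). Rasa1, a RasGAP that binds PDGFR beta, was the only one over 4-fold at the listed level (-2.68, SE 0.69, limma adjusted p = 0.022), and its locus level was 33.6, 28.2 and 32.9 FPKM in the SCPs and 19.1, 21.5 and 21.5 FPKM in the RSCs, a difference of -0.58 (SE 0.11, limma adjusted p = 0.0029).

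Markers of other cell types moved with the groups, and their part in the results above was not tested. Counts and sums of markers here and in the next paragraph are at the listed level unless stated. Of all genes tested, 18.1% were called higher in the RSCs and 22.4% higher in the SCPs at that level, and 23.2% and 34.2% at the locus level. Of 12 endothelial markers, 3 were called higher in the RSCs and 1 in the SCPs, and 4 and 1 at the locus level. Their summed listed level was 64.8 to 99.3 FPKM in the SCPs and 128 to 138 FPKM in the RSCs. These sums leave out unnamed transcripts, and with them the sums of the groups overlapped. The difference of Cdh5 went from 1.80 to -0.08 at the locus level, while that of Cldn5 was 1.88 at both levels. Of 9 mural cell markers tested, 1 was called higher in the RSCs (Cspg4, difference 2.22), with sums of 245 to 587 FPKM in the SCPs and 376 to 451 FPKM in the RSCs. At the locus level 10 were tested, with 3 called higher in the RSCs and 1 in the SCPs. Rgs5 was listed at 0 in all RSC samples, although its locus level was 75.3 to 98.4 FPKM there and 4.98 to 9.99 FPKM in the SCPs. Notch3 went the other way at the locus level, with 42.3 to 51.4 FPKM in the SCPs and 14.8 to 18.6 FPKM in the RSCs. Of 11 fibroblast markers, 8 were called higher in the RSCs and 2 in the SCPs, with sums of 1271 to 1782 FPKM in the SCPs and 5452 to 8077 FPKM in the RSCs. All 10 leukocyte markers were called higher in the RSCs, with sums of 18.2 to 46.0 FPKM in the SCPs and 2907 to 3138 FPKM in the RSCs.

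Embryonic mesenchyme markers went the other way, with 6 of 8 called higher in the SCPs and sums of 97.1 to 124 FPKM against 20.0 to 31.3 FPKM in the RSCs. At the locus level all 8 were called higher in the SCPs. Of 4 neuronal markers tested, 2 were called higher in the SCPs, with sums of 28.4 to 42.6 FPKM in the SCPs and 17.5 to 28.1 FPKM in the RSCs. The labelled cell type was present by its defining gene, since Sox10 was at 175 to 181 FPKM in the SCPs and at 143 to 149 FPKM in the RSCs. Of the 8 Schwann cell lineage markers tested, 4 were called higher in the RSCs and 1 in the SCPs (Sox10). At the locus level 9 were tested, with 7 called higher in the RSCs and 1 in the SCPs. The listed sums, which leave out unnamed transcripts, were 458 to 519 FPKM in the SCPs and 1887 to 2409 FPKM in the RSCs.

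The genes whose pattern over the 6 samples was most like that of Pdgfa, by the root mean square difference in log2(FPKM + 1) at the listed level, were Capn1 (0.19), Hsd17b11 (0.29) and Colec12 (0.32). Nearest to Vegfc were Hells (0.27), LOC100911660 (0.27) and E2f7 (0.31). Since all 6 samples fall into the same 2 groups, these genes share with Pdgfa or Vegfc both the level and the difference between the groups.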

How the data were processed

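RNA of 3 SCP and 3 RSC preparations was sequenced by the authors as stranded, paired-end mRNA libraries. Per the labels, the reads were processed with FastQC 0.11.2, TopHat2 2.1.0 and Cufflinks 2.2.1 on rn6, and replicates were not pooled. The deposited tables hold FPKM per transcript, normalized by Cufflinks for transcript length and mapped fragments, its confidence bounds, and the coverage of each transcript, a signal used here for relative depth only. They hold no counts, so no count model was run and the absolute depth is unknown. Coverage per FPKM, taken as relative depth, ranged from 0.88 to 1.00 in the SCPs and from 0.79 to 0.84 in the RSCs when the deepest sample is set to 1. The share of FPKM in unnamed transcripts was 26.1% to 31.9% in the SCPs and 18.6% to 23.4% in the RSCs. They carry no strand, so reads of an antisense gene could be among them, and each adds its FPKM over its own length.

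FPKM were summed by symbol, without 77 transcripts per table whose names had become dates. limma 3.58.1 (R 4.3.3) was fitted with a variance trend to log2(FPKM + 1) of the 13003 genes whose mean reached 1 FPKM, or 14019 at the locus level, with group as the only term, two-sided. The script was tested on simulated data. Within-sample ratios were compared with scipy 1.17.1, and tables were read with pandas 2.3.3. The study states that 3 sets of cells were prepared per group, but not which animals each set came from, so p-values measure the spread between these sets. The labels name no batch. The genes, lists and alternatives were chosen with earlier results of these data known. All 10 genes are named, with the members of pathway lists past p under 0.01 and over 4-fold, the receptors, and the 3 genes nearest in pattern to the called genes with the largest and the smallest difference; other list members were named after their values were seen. As alternatives, the pseudocount was set to 0.1, the filter dropped or raised to a mean of 5 FPKM, the samples scaled by quantiles or by median of ratios, the variance trend dropped, the replicate number added as a block, the adjusted p used for calls, samples left out in turn, only the highest transcript of a gene kept, the locus level used, and a 0 dropped if its group reached 5 FPKM elsewhere. The result of 1 marker gene is not reported here.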

Additional observations from a re-analysis of the deposited data

How the results depend on the processing

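Recomputed under each alternative, the differences of single genes kept their direction and their side of the threshold in 145 cases, changed sign in 11, with or without a call, and with the same sign gained a call in 5 and lost it in 3. Many of the 145 could not change sign. The filter, the variance trend, the replicate block and the adjusted p act on the p-value only. Keeping the highest transcript left genes with 1 listed transcript as they were, and the locus level left Pdgfra and Angpt2. The number of genes higher in the RSCs, 1 at the listed level, was 2 under median-of-ratios scaling (Pdgfra was the second) and 3 at the locus level, and 1 to 2 with a sample left out. The number higher in the SCPs, 1 at the listed level, was 0 with a mean of at least 5 FPKM, where 4 of the 10 genes were tested and Vegfc was not, and 4 at the locus level. It was 0 to 1 with a sample left out, since Vegfc lost its call without SCP replicate 2, SCP replicate 3 or RSC replicate 3. With values of 0 left out, Pdgfc had SCP replicate 1 as its only SCP sample (difference -1.80), so no count is given for that setting. Without SCP replicate 1, whose listed Pdgfc value is the only one above 0 in the SCPs, Pdgfc was called higher in the RSCs (1.44). The number over 4-fold was 2 with a pseudocount of 0.1 and 2 at the locus level.

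The sign of the difference turned for Pdgfb at the locus level (1.45), with values of 0 left out (1.40, with RSC replicate 3 as the only RSC sample) and without RSC replicate 1 or 2 (0.030), where leaving out samples gave -1.34 to 0.030. It turned for Pdgfc at the locus level (-2.43), with values of 0 left out (-1.80, with SCP replicate 1 as the only SCP sample) and without SCP replicate 2 or 3 (-0.18), where leaving out samples gave -0.18 to 1.44. It also turned for Pdgfd at the locus level (1.15), for Vegfb under median-of-ratios scaling (0.11) and for Angpt2 without SCP replicate 1 (-0.17, up to 0.43 without another sample). The cause of these turns was not tested.

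Replicate numbers did not pair the samples: deviations of same-numbered samples correlated at -0.0049 to 0.044 across genes, below 0.1. With the replicate block, 2 genes were higher in the SCPs, since Angpt1 passed, and no other call changed. Depth limits the low genes most, and without counts no detection limit can be given for values listed at 0.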

Other observations

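Figf, Pgf, Pdgfrl and Angpt4, further genes related to these families, were added after their values were seen and are given as a description. Vegfa was not among the genes examined. Figf, which encodes VEGF-D, the second ligand of VEGFR3, had a listed level of 2.46, 1.01 and 5.39 FPKM in the SCPs and of 0, 0.147 and 0 FPKM in the RSCs. All SCP samples lay above all RSC samples, as for Vegfc, and the difference was -1.76 (SE 0.45, limma adjusted p = 0.021), and -2.45 (SE 0.17) at the locus level. Pgf, placental growth factor and a ligand of VEGFR1, had 2.65, 3.53 and 3.59 FPKM in the SCPs and 2.44, 2.09 and 1.63 FPKM in the RSCs, with a difference of -0.48 (SE 0.22, limma adjusted p = 0.12). Pdgfrl, a secreted protein that resembles the outer part of a PDGF receptor, had 0.935, 0.624 and 0.704 FPKM in the SCPs and 2.43, 3.26 and 3.77 FPKM in the RSCs. Its groups did not overlap, and the difference was 1.23 (SE 0.23, limma adjusted p = 0.0065). Angpt4, a further ligand of Tie2, was at 0.565 FPKM or less in every sample and was not tested.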
